A study of Mus musculus with 16 samples.

Results

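The genes described here encode the proteasome, the protease complex that degrades ubiquitin-tagged proteins, in livers of mice lacking the chromatin remodelling subunit ARID1B alone or ARID1A and ARID1B together. Members were chosen by name, as every gene symbol that starts with Psma, Psmb, Psmc, Psmd, Psme, Psmf or Psmg followed by a digit, and 50 of the 24421 genes in each count table matched. They comprised 7 genes of the alpha ring and 7 of the beta ring of the 20S core, 3 immunoproteasome genes, 2 further 20S genes, 6 ATPases and 11 other subunits of the 19S regulatory particle, 6 activator or inhibitor genes, 7 assembly chaperones, and Psmc3ip, which shares only the name. The 14 core and 17 regulatory-particle genes of this list are called the 31 constitutive genes below.

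Whole-liver mRNA was sequenced in 16 libraries of 4 groups of 4. Double-knockout livers (DKO) had the genotype ARID1A f/f, ARID1B f/f with Alb-Cre, and their controls had the same floxed alleles with no Cre. Single-knockout livers (BKO) were ARID1B f/f with Alb-Cre, and their controls were ARID1B f/f with no Cre. The albumin promoter drives Alb-Cre mainly in hepatocytes and their precursors, so whole-liver RNA also holds transcripts of cells without the deletion, and Cre itself was absent from every control. Ages and sexes are not stated in the labels. Libraries are named by the tags in their labels, such as DKO-7068 or BKO F1. That each library is a separate animal was assumed from these tags, and BKO controls F5 and F5-2 share a tag. Where 2 libraries shared an animal the p-values measure technical spread.

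The 20S core is a barrel of alpha and beta rings that holds the proteolytic sites, and the 19S particle, a ring of ATPases with a lid, recognises ubiquitin chains and threads substrates into the barrel. The catalytic beta subunits PSMB6, PSMB7 and PSMB5 can be replaced during assembly by PSMB9, PSMB10 and PSMB8, which gives the immunoproteasome. Interferon gamma induces these replacements and the PA28 activator, and immune cells carry them constitutively, while the transcription factor NFE2L1 drives the constitutive genes when proteasome activity falls.

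Libraries of DKO livers and their controls held 8699417 to 11031443 counts, of which 0.196% to 0.250% fell on proteasome genes. Libraries of BKO livers and their controls held 21151726 to 40551934 counts, with a proteasome share of 0.166% to 0.185%. Arid1b was lower in BKO livers by a log2 fold change of -0.94 (edgeR adjusted p = 0.00154) and in DKO livers by -0.57 (edgeR adjusted p = 0.0167). Arid1a stood at -0.20 in DKO livers (edgeR adjusted p = 0.149), from counts over the whole gene rather than the deleted part. Hepatocyte markers such as Alb were abundant in every library. In DKO livers 5 of 8 hepatocyte markers fell, 9 of 10 leukocyte markers and 9 of 12 macrophage markers rose. In whole tissue, a change in the number of cells of a type and a change in RNA per cell cannot be told apart. Levels below are in CPM, counts per 1000000 counts of a library after TMM scaling, given as mean ± SD over 4 libraries, and a gene was called when its edgeR adjusted p was under 0.05.

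In DKO livers 48 members could be tested, of which 5 were called higher (Psmb8, Psmb9, Psmb10, Psme2 and Psma1) and 2 lower (Psmd9 and Psme4). Among all 12848 genes tested 35.8% were called, 19.2% higher and 16.6% lower, so the members' share of calls was no larger than the background in either direction. The median log2 fold change was 0.02 over the members and 0.02 over all genes, and 25 of 48 members against 51.6% of all genes had a fold change above 0. All 4 DKO libraries lay above all 4 controls for Psma1, Psmb2 and Psmb8, and below them for Psmd9 and Psme4, against 18.5% and 16.9% of all genes. The calls were uneven over the classes, with 3 of 3 immunoproteasome genes and 1 of 31 constitutive genes called. Psmb8 and Psmd9 kept their calls under every alternative run, while the number called higher was 1 to 3 without DKO-7068 or DKO-7070 or without control WT-7067, WT-7069, WT-7114 or WT-7139. With scaling by library totals 10 members were called higher and 1 lower.

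In BKO livers 49 members were tested and edgeR called 0 higher and 0 lower, where 0.185% and 0.398% of 14061 genes were called, 0.583% in all. DESeq2 and limma voom also called 0 members. At an unadjusted p under 0.05, 9 members were higher and 1 was lower, against 5.88% and 5.75% of all genes. The fold changes of 39 of 49 members were above 0, against 50.0% of all genes, with a median log2 fold change of 0.10 against 0.00. Psmb11 had no count in any of the 16 libraries, and Psma8, a testis-type alpha subunit, was at 0.601 CPM in DKO livers and 0.533 in their controls, too low to be tested there.

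**Figure D1:**
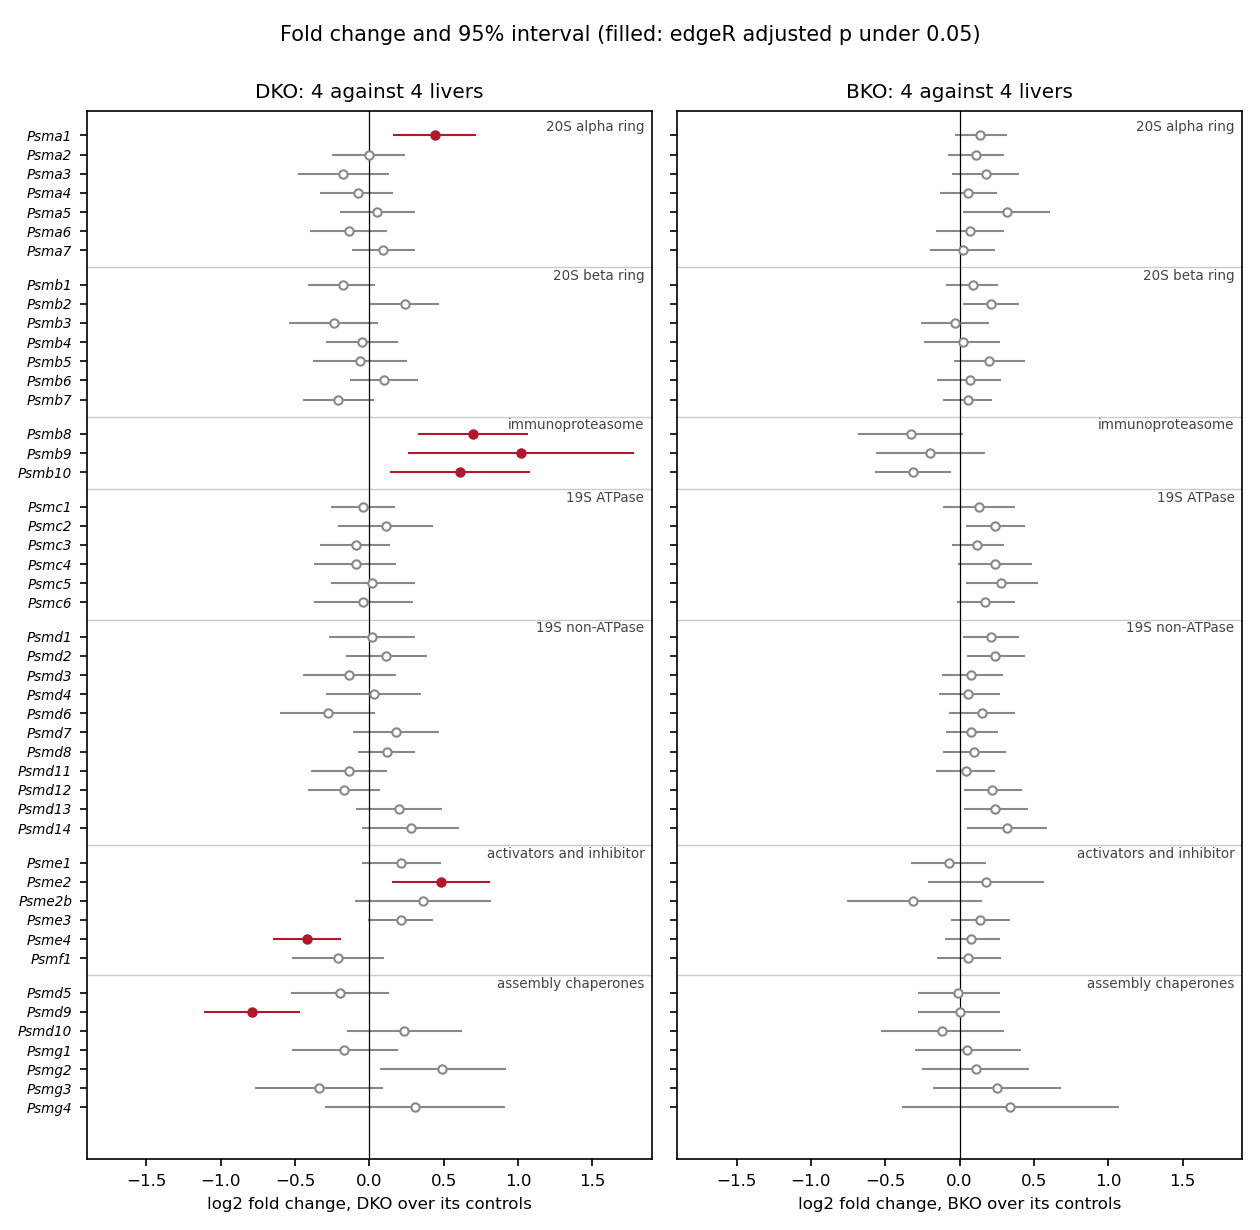
Log2 fold change of each knockout over its own controls (horizontal axis) with its 95% interval, for members of 7 classes (vertical axis). Filled points passed an edgeR adjusted p under 0.05, which 7 members did in DKO and 0 in BKO; the immunoproteasome genes lie right of 0 in DKO and left of 0 in BKO.

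The immunoproteasome genes gave the largest rises among the members in DKO livers. Psmb8 encodes the inducible chymotrypsin-like subunit that takes the place of PSMB5 (chromosome 17, 34197721 to 34201454, plus strand, GRCm38). Psmb8 was at 31.7, 33.6, 28.7 and 21.7 CPM in DKO-7068, DKO-7070, DKO-7112 and DKO-7137, and at 19.6, 19.9, 18.3 and 13.4 CPM in controls WT-7067, WT-7069, WT-7114 and WT-7139. Every DKO library stood above every control, with DKO-7137 closest to them. The mean rose 1.63-fold, from 17.8 ± 3.01 to 28.9 ± 5.26 CPM, a log2 fold change of 0.70 with a 95% interval of 0.33 to 1.07 (edgeR adjusted p = 0.00858).

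Psmb9 encodes the subunit that replaces PSMB6 and lies 9956 bases from Psmb8 in the class II region of the histocompatibility complex (chromosome 17, 34181987 to 34187764, minus strand). Its level was 13.6, 20.2, 16.5 and 5.39 CPM in the 4 DKO livers and 6.05, 7.64, 7.63 and 6.06 CPM in the controls, in the same order. In DKO livers, 3 libraries were well above the controls and DKO-7137 was below all of them, so the groups overlapped. The mean rose 2.03-fold, from 6.84 ± 0.913 to 13.9 ± 6.31 CPM (log2 fold change 1.02, interval 0.26 to 1.78, edgeR adjusted p = 0.0398). The Psmb9 call was lost with voom (adjusted p = 0.11), with no count filter (0.0517) and when any DKO or control library other than DKO-7137 was left out, at adjusted p of 0.0674 to 0.112 over DKO-7068, DKO-7070 and DKO-7112 and controls WT-7067, WT-7069, WT-7114 and WT-7139. Psmb9 overlaps the peptide transporter gene Tap1 on the other strand, where Tap1 stood at 44.4 ± 13.8 CPM in DKO against 30.1 ± 4.68 (log2 fold change 0.57, edgeR adjusted p = 0.084). No source used here states the counting strand, and the part of Tap1 reads in the Psmb9 counts was not tested.

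Psmb10 encodes the replacement of PSMB7, on chromosome 8 (105935735 to 105938444, minus strand), away from the other pair. It stood at 43.7, 48.8, 29.0 and 28.9 CPM in DKO livers and at 24.7, 30.5, 25.6 and 17.7 CPM in controls. DKO-7068 and DKO-7070 were far above every control, and DKO-7112 and DKO-7137 lay under control WT-7069. The mean rose 1.53-fold, from 24.6 ± 5.27 to 37.6 ± 10.2 CPM (log2 fold change 0.61, interval 0.14 to 1.08, edgeR adjusted p = 0.0471). The Psmb10 call ended at an adjusted p of 0.0519 with DESeq2 size factors, 0.057 with voom and 0.0541 with no count filter. It also ended without DKO-7068 (0.127) or DKO-7070 (0.144), and without controls WT-7067 (0.0882), WT-7114 (0.0907) or WT-7139 (0.106). DKO-7068 and DKO-7070 were the most alike DKO pair, and with their counts summed as 1 library Psmb10 stood at 0.48 (adjusted p = 0.126) and Psmb9 at 0.91 (adjusted p = 0.0767).

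Markers of other cell types also changed in DKO livers. The summed level of the 10 leukocyte markers was 279, 316, 377 and 270 CPM in DKO-7068, DKO-7070, DKO-7112 and DKO-7137, against 156 to 187 CPM in controls, with a median log2 fold change of 1.45 and the largest rise, 2.26, for Coro1a. Macrophage markers summed to 612 to 714 CPM against 341 to 550. T and NK cell markers summed to 7.36 to 12.1 against 4.04 to 6.49, and B cell markers to 5.43 to 8.64 against 2.35 to 6.21. Only Cd4 of 9 T and NK cell markers and Jchain of 5 B cell markers had enough counts to test, and both were called higher. Untested markers went both ways, with 10 to 21 counts per DKO library against 2 to 9 for Cd8a, and 4 to 12 against 6 to 13 for Nkg7. The T cell genes Cd3d and Cd3g and the B cell gene Cd79b had no count in 1 or 2 libraries of a group, and no leukocyte or macrophage marker was at 0 in any DKO library or its controls. In DKO, 4 of 6 stellate cell markers rose and 1 fell, endothelial markers held 1 call each way of 6, and 1 of 2 tested biliary markers rose. Summed hepatocyte markers were 71700 to 104000 CPM against 127000 to 154000. The part of these cells in the immunoproteasome result was not tested. The immunoproteasome sums were 88.9, 103, 74.1 and 56.0 CPM in DKO-7068, DKO-7070, DKO-7112 and DKO-7137, against 37.1 to 57.9 in controls. DKO-7137 had the lowest leukocyte, macrophage and immunoproteasome sums of the DKO group, the first 2 of these above every control. DKO-7112 had the highest leukocyte sum and, after DKO-7137, the lowest immunoproteasome sum, so the libraries were not in the same order.

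The same genes were lower on average in BKO livers, by less than the test could call. Psmb10 was at 23.8, 24.3, 19.3 and 18.3 CPM in BKO F1, F3, F4 and F6 and at 24.5, 28.9, 25.5 and 27.3 CPM in controls F2, F5-2, F5 and F7. All 4 BKO values lay under all 4 controls, as did those of 3.36% of all genes. The log2 fold change of Psmb10 was -0.31 with an interval of -0.57 to -0.06, and its adjusted p from edgeR was 0.317.

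Psmb8 was at 17.3, 13.2, 16.9 and 10.9 CPM in BKO livers against 22.3, 16.6, 18.3 and 16.0, a log2 fold change of -0.33 (interval -0.68 to 0.02, edgeR adjusted p = 0.465). Psmb9 was at 8.29, 6.95, 6.08 and 5.48 CPM against 7.44, 7.19, 7.05 and 9.0, at -0.20 (interval -0.56 to 0.17, edgeR adjusted p = 0.718). For both genes the groups overlapped and BKO F6 was the lowest of all 8 libraries. The sum of the 3 genes was 34.7 to 49.4 CPM in BKO livers and 50.9 to 54.3 CPM in controls, with no overlap and no test. Leukocyte markers summed to 137 to 215 CPM against 153 to 162, and 0 of 10 was called in BKO, as in every other marker list there.

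**Figure D2:**
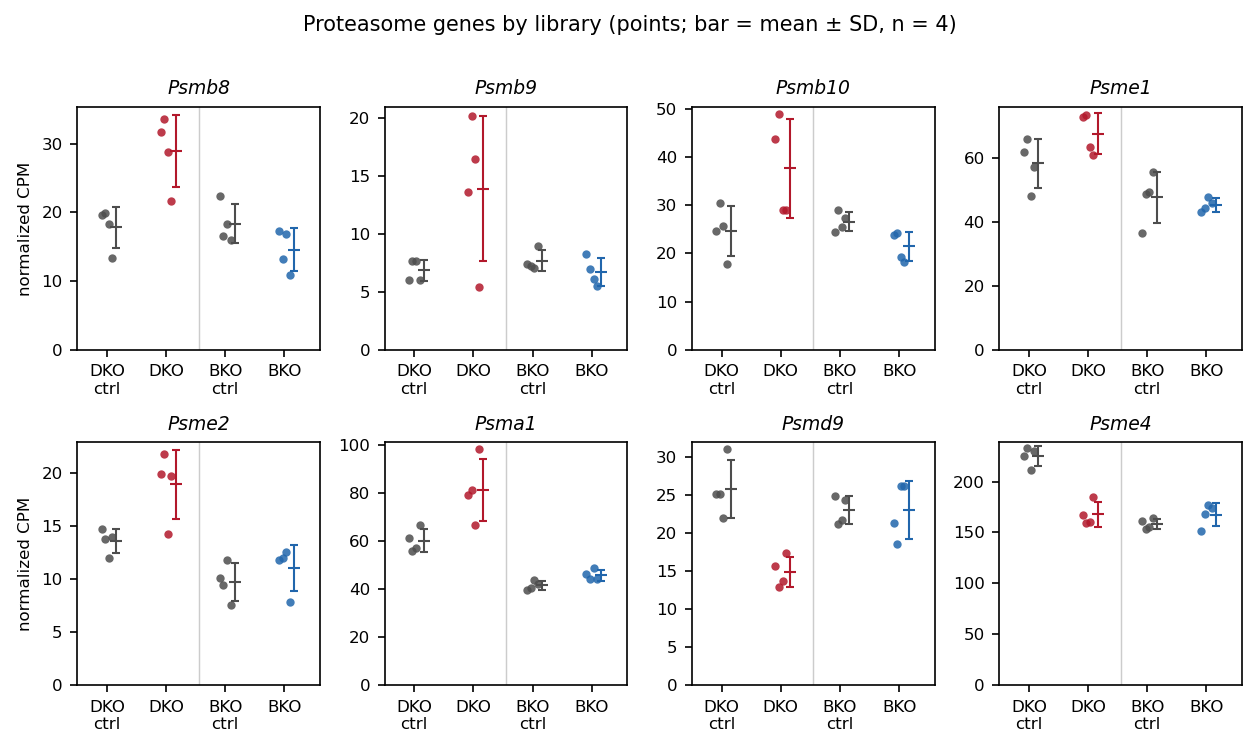
Normalized CPM (vertical axis) of 8 members in each library, by group (horizontal axis), with the mean and SD of 4 libraries beside the points. Psmb8, Psma1, Psmd9 and Psme4 separate DKO from its controls, Psmb9 has 1 DKO library at 5.39 CPM, under the lowest control, and the BKO panels overlap except for Psma1 (higher) and Psmb10 (lower).

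The effects of the knockouts on these 3 genes were compared directly in 1 fit over 16 libraries, in which 6 of 49 members differed, 3 higher and 3 lower, among 22.5% of 14050 genes, 11.0% higher and 11.5% lower. The DKO effect exceeded the BKO effect by a log2 difference of 1.00 for Psmb8 (interval 0.49 to 1.52, edgeR adjusted p = 0.00718), 0.89 for Psmb10 (0.36 to 1.42, adjusted p = 0.0169) and 1.19 for Psmb9 (0.38 to 2.0, adjusted p = 0.0336). The Psmb9 difference missed the threshold with voom (1.07, adjusted p = 0.0843). It also did without DKO-7068, DKO-7070 or DKO-7112, controls WT-7067, WT-7139 or F7, or BKO F4 or F6, at adjusted p of 0.0512 to 0.0838. Without DKO-7137, 10 members were called. The experiments differ in depth, in the floxed alleles of their controls and in table, and these cannot be told apart from the genotype in this contrast.

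Each inducible subunit was then set against the constitutive subunit it replaces in the same library, a ratio that needs no scaling between libraries. The constitutive partners themselves were not called in either experiment. Psmb5 was at 17.9, 15.3, 21.2 and 18.7 CPM in DKO livers against 17.0, 17.1, 19.3 and 22.8 in controls, with overlapping groups and a log2 fold change of -0.06 (interval -0.38 to 0.25). In BKO livers Psmb5 was at 15.9, 14.7, 14.6 and 12.7 CPM against 12.7, 11.9, 12.9 and 12.9, where only F6 was within the control range (0.20, interval -0.04 to 0.44).

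Psmb6 was at 60.1, 60.2, 48.8 and 59.2 CPM in DKO livers against 57.3, 50.4, 50.7 and 54.9 (0.10, interval -0.13 to 0.33), and at 41.4, 39.1, 42.7 and 44.3 CPM in BKO livers against 33.8, 41.0, 40.9 and 44.4. DKO-7112 was under all controls and the other 3 DKO libraries over them. Psmb7 was at 53.7, 52.0, 42.9 and 56.7 CPM in DKO livers against 55.9, 58.0, 61.0 and 62.5 (-0.21, interval -0.45 to 0.03, edgeR adjusted p = 0.157), and at 43.5, 42.4, 42.7 and 41.3 CPM in BKO livers against 40.1, 41.4, 41.1 and 40.5. Only DKO-7137 reached the control range of Psmb7, and with all 16 libraries in 1 fit Psmb7 was called lower in DKO (-0.24, adjusted p = 0.0357).

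The log2 ratio of Psmb8 to Psmb5 counts was 0.82, 1.14, 0.44 and 0.21 in DKO livers and 0.20, 0.22, -0.08 and -0.77 in controls. The highest 3 values were from DKO livers, and DKO-7137 fell just under control WT-7069. The ratio was 1.69-fold higher in DKO livers (log2 difference 0.76, exact two-sided permutation p = 0.0571, adjusted over the 6 ratios 0.0857). The ratio of Psmb10 to Psmb7 was 1.76-fold higher (0.81, exact p = 0.0571, adjusted 0.0857) and that of Psmb9 to Psmb6 1.72-fold higher (0.78, exact p = 0.171, adjusted 0.206). Without DKO-7137 the log2 differences were 0.90, 0.98 and 1.20 in that order, and each had an exact p of 0.0286, the smallest that 3 against 4 allows. DKO-7137 had the lowest DKO value of each ratio, at 0.21, -0.97 and -3.44 in that order. Leaving it out thus picks a library by the values tested, and these p-values are no separate result.

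In BKO livers the Psmb8 to Psmb5 log2 ratio was 0.12, -0.15, 0.21 and -0.22 against 0.81, 0.48, 0.51 and 0.31 in controls. Every BKO library was under every control, and the ratio was 0.689 of the control value (log2 difference -0.54, exact two-sided permutation p = 0.0286, the smallest that 4 against 4 can give, adjusted 0.0857). The Psmb10 to Psmb7 ratio also separated the groups, at 0.769 of the control value (-0.38, exact p = 0.0286, adjusted 0.0857). With F5 and F5-2, which share a tag, summed as 1 control, the Psmb10 to Psmb7 difference was -0.38 at an exact p of 0.0571, and without any 1 of the 4 controls it was -0.41 to -0.34, also at 0.0571. The Psmb8 to Psmb5 difference was at 0.0571 without control F2 (-0.44), BKO F3 (-0.49) or BKO F6 (-0.47). The Psmb9 to Psmb6 ratio overlapped, at 0.826 of the control value (-0.28, exact p = 0.229, adjusted 0.229). After adjustment 0 of the 6 ratios passed 0.05 in either experiment, and at an unadjusted exact p under 0.05 there were 2.

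**Figure D3:**
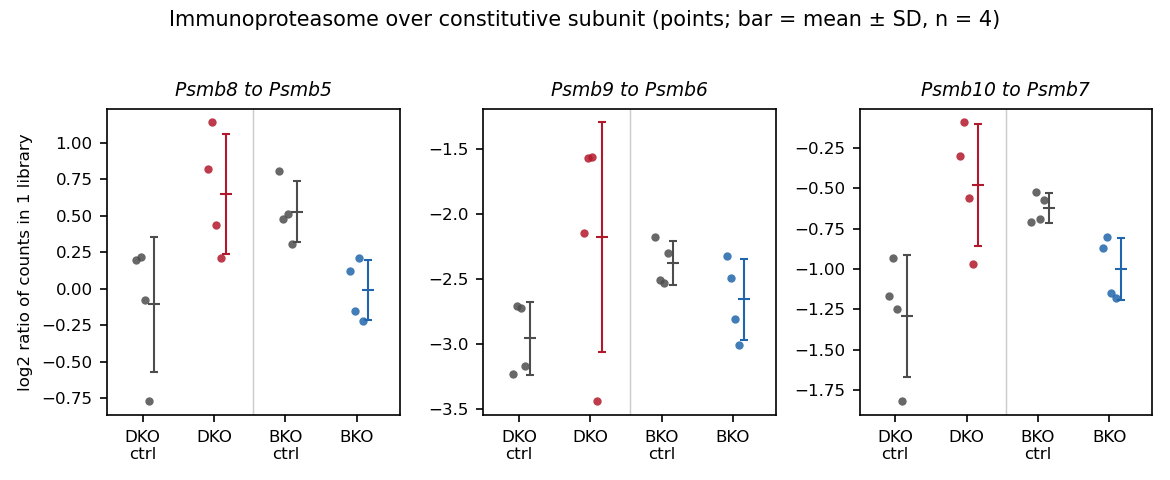
Log2 ratio of the counts of each immunoproteasome gene to the constitutive gene it replaces (vertical axis) in each library, by group (horizontal axis), with mean and SD over 4 libraries. BKO points lie under all control points for Psmb8 to Psmb5 and Psmb10 to Psmb7, and 1 DKO library at -3.44 sits under all its controls for Psmb9 to Psmb6.

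Promoter sequence is shown for the exchanging genes Psmb8, Psmb10 and Psmb5, for Psme2, which rose, and for Psmd9, which fell most. RefSeq windows on GRCm38.p6, 250 bases before to 50 after each start, were matched for 42 of 50 members. They were richer in G and C than usual, with a median GC content of 57.3% against 52.7% over all 32851 windows and a median of 19 CpG pairs against 7. Psmb10 was at the low end with 45.7% GC and 3 CpG pairs, while Psmb8 had 55.3% and 11. Capitals below mark matches, on either strand, to TTCNNNGAA (a gamma-activated site), GAAA, any 2 bases and GAAA (the core of the interferon-stimulated response element) or TGACNNNGC (the core of the antioxidant response element, bound by NFE2L1 and NFE2L2).
Psmb8, chr17:34198088-34198117, plus strand: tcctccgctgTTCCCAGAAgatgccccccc
Psmb10, chr8:105938445-105938642, minus strand: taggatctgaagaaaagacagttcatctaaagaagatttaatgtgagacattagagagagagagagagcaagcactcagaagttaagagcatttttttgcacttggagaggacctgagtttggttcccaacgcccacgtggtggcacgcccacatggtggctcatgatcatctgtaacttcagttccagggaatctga
Psmb5, chr14:54618023-54618245, minus strand: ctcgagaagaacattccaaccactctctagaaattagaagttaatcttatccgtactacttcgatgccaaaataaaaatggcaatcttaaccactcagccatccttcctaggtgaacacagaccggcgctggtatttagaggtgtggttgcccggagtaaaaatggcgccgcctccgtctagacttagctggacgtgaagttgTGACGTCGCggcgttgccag
Psme2, chr14:55591114-55591351, minus strand: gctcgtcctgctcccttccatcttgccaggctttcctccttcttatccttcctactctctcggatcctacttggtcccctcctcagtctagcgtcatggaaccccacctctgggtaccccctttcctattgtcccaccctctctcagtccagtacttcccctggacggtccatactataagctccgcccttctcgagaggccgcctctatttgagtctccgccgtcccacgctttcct
Psmd9, chr5:123227940-123228189, plus strand: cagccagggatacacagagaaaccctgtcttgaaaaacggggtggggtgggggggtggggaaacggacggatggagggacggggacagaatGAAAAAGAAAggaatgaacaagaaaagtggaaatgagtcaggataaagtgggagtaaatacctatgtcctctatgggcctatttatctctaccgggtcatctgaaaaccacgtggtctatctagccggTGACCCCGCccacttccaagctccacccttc
For Psmb10, Psmb5, Psme2 and Psmd9 the longest stretch before the start outside RefSeq genes and GENCODE exons is shown. Too little such sequence was left for Psmb8, so 30 bases around its match are shown, which may include annotated exons. Psmb9 also had too little and held no match, so none of its sequence is shown. The starts used here are those of RefSeq. By GENCODE the stretches shown for Psmb8 and Psmd9 lie inside the spans of those genes, past the start of each span. These spans are 34197721 to 34201454 for Psmb8 and 123169413 to 123250131 for Psmd9. Psmb8 held TTCCCAGAA, which starts 97 bases before its RefSeq start, and TTCNNNGAA occurred in 8.3% of all windows and in those of 3 of 42 members (Psmb8, Psmd2 and Psmg1). The motif of paired GAAA occurred in 3.44% of all windows and in 5 of 42 members (Psmb3, Psmd4, Psmd9, Psme1 and Psmg4). TGACNNNGC occurred in 12.4% of all windows and in 6 of 42 members (Psmb5, Psmb6, Psmc6, Psmd12, Psmd9 and Psme4). A match describes these letters only. The stretches shown for Psmb10 and Psme2 held no match to the 3 motifs, which says nothing of binding elsewhere.

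Among the activators, PSME1 and PSME2 form PA28, the interferon-inducible cap, PSME3 forms the nuclear PA28 gamma cap, PSME4 (PA200) is a large nuclear cap linked to histone turnover, and PSMF1 is an inhibitor. In DKO livers Psme2 rose and Psme4 fell, and the other 4 were not called. Psme2 (chromosome 14, 55587441 to 55591113, minus strand) was at 19.9, 21.7, 14.2 and 19.7 CPM in DKO livers and 14.7, 13.7, 12.0 and 13.9 CPM in controls. Only DKO-7112 lay within the control range. Its mean rose 1.39-fold, from 13.6 ± 1.12 to 18.9 ± 3.23 CPM (log2 fold change 0.48, interval 0.15 to 0.81, edgeR adjusted p = 0.029). The Psme2 call was lost, at adjusted p of 0.0533 to 0.0922, without DKO-7068, DKO-7070 or DKO-7137 or without controls WT-7069, WT-7114 or WT-7139, and at 0.0783 with DKO-7068 and DKO-7070 summed. Psme2b, a near copy of Psme2, stood at 0.36 (interval -0.10 to 0.82), and reads shared between the copies make both values uncertain.

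Psme1, which lies 5911 bases from Psme2, was at 72.8, 73.6, 63.4 and 61.0 CPM in DKO livers and 61.8, 66.1, 48.2 and 57.3 CPM in controls. The groups overlapped, and its log2 fold change was 0.21 (interval -0.05 to 0.48, edgeR adjusted p = 0.195). Psme3 was at 81.5, 70.8, 72.4 and 86.7 CPM against 65.0, 67.0, 71.5 and 66.5, with DKO-7070 alone inside the control range (0.21, interval -0.01 to 0.43, edgeR adjusted p = 0.133). Psmf1 was at 26.4, 26.4, 19.9 and 19.7 CPM against 26.9, 27.6, 29.5 and 23.0, an overlapping spread (-0.21, interval -0.52 to 0.10, edgeR adjusted p = 0.274).

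Psme4 (chromosome 11, 30771726 to 30880361, plus strand) was at 167, 159, 160 and 185 CPM in DKO livers and 225, 233, 211 and 230 CPM in controls. The groups were apart, and no DKO library came near the lowest control. Its level fell to 0.747 of the control mean, from 225 ± 9.49 to 168 ± 12 CPM (log2 fold change -0.42, interval -0.65 to -0.19, edgeR adjusted p = 0.0105). Scaling by library totals alone moved the median of all genes in DKO from 0.02 to 0.20, and there Psme4 stood at -0.24 (adjusted p = 0.102). In BKO livers Psme4 was at 151, 168, 177 and 174 CPM against 161, 153, 155 and 164, a log2 fold change of 0.08 (interval -0.10 to 0.27, edgeR adjusted p = 0.764). The DKO effect was below the BKO effect by -0.54 (interval -0.79 to -0.28, edgeR adjusted p = 0.00393), and with library totals by -0.26 (adjusted p = 0.186), a scaling that moved the median of all genes from -0.01 to 0.27.

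In BKO livers none of the 6 activator and inhibitor genes was called by edgeR, and 0 had an unadjusted p under 0.05. Psme2 was at 11.8, 12.0, 12.5 and 7.82 CPM against 10.1, 9.42, 11.8 and 7.54, with BKO F6 far below the other knockouts (0.18, interval -0.21 to 0.57, edgeR adjusted p = 0.759). Psme1 was at 43.0 to 47.8 CPM inside a control range of 36.7 to 55.7, Psme3 at 54.7 to 64.8 against 51.8 to 60.4, and Psmf1 at 18.8 to 22.2 against 18.9 to 21.5. All 3 overlapped their controls.

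The 20S core genes showed little shift in DKO livers, with a median log2 fold change of -0.06 over 14 genes, 1 called higher and 0 lower. Psma1, an alpha-ring subunit (chromosome 7, 114264606 to 114276118, minus strand), was the one called. It stood at 79.4, 81.4, 66.9 and 98.3 CPM in DKO livers and 61.2, 55.8, 57.1 and 66.7 CPM in controls. DKO-7112, the lowest knockout, was barely above control WT-7139, the highest control. The mean rose 1.35-fold, from 60.2 ± 4.92 to 81.5 ± 12.9 CPM (log2 fold change 0.44, interval 0.16 to 0.72, edgeR adjusted p = 0.0208), and the Psma1 call was lost without control WT-7069 (0.0569) or WT-7114 (0.0607).

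Psmb2, a beta-ring subunit without a proteolytic site, also had all DKO libraries above all controls, at 34.0, 30.2, 31.7 and 33.2 CPM against 26.8, 23.6, 29.7 and 29.7. The margin was small, and its log2 fold change was 0.24 (interval 0.00 to 0.47, edgeR adjusted p = 0.11). Psma3 was at 30.9, 32.5, 32.7 and 46.4 CPM against 40.2, 37.5, 39.0 and 44.0. Here 3 DKO libraries were under every control and DKO-7137 over every control, and without DKO-7137 Psma3 was called lower (-0.33, edgeR adjusted p = 0.0282). Psmb1 was at 62.1 to 68.1 CPM against 62.2 to 78.5, which overlapped (-0.18, edgeR adjusted p = 0.195).

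The 19S genes held 0 calls in DKO livers by edgeR among 17, and 0 at an unadjusted p under 0.05, where 23.8% and 21.3% of all genes were higher and lower. DESeq2 and voom also called 0. With scaling by library totals, which moved the median of all genes to 0.20, edgeR called Psmd14 (0.45, adjusted p = 0.0281) and Psmd7 (0.36, adjusted p = 0.0457) higher, and 26 of 31 constitutive genes were above 0 against 14. With TMM scaling the median log2 fold change of the 19S genes was 0.02, and fold changes ran from -0.28 for Psmd6, a lid subunit, to 0.28 for Psmd14, the deubiquitinase of the lid. Psmd6 was at 31.8, 27.8, 24.6 and 38.3 CPM against 34.0, 34.4, 37.6 and 42.9, where only DKO-7137 was within the control range. Psmd14 was at 31.3, 29.8, 26.8 and 39.7 CPM against 26.2, 22.2, 25.5 and 31.4, and only DKO-7137 lay outside the control range. The 6 ATPases lay between -0.09 and 0.11. Psmc2 was at 53.2, 52.0, 52.1 and 75.4 CPM against 51.2, 50.1, 50.3 and 64.0, with 1 high library in each group (0.11, edgeR adjusted p = 0.593). Psmc3 was at 47.7 to 62.4 CPM against 55.8 to 60.4.

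DKO-7137 stood apart over the constitutive genes. It held the highest level of the DKO group for 27 of 31 constitutive genes, and its median log2 difference from the control mean was 0.15, against -0.05, -0.18 and -0.13 in DKO-7068, DKO-7070 and DKO-7112. Control WT-7139 was likewise the highest control for 20 of 31 genes, at 0.13. The same 2 libraries had the lowest immunoproteasome medians of their groups, 0.23 and -0.41. Without DKO-7137, 4 of 31 constitutive genes were called lower, where 16.6% of all genes were lower with every library in. These were Psma3, Psmb3 (-0.37, edgeR adjusted p = 0.0373), Psmd6 (-0.41, 0.036) and Psmd12 (-0.27, 0.0373), which made 6 members lower in all. Over the 8 fits with a library left out, 1776 to 2283 of all genes were called lower. DKO-7137 was singled out by its level over these same genes, so the 4 calls are no separate result.

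**Figure D4:**
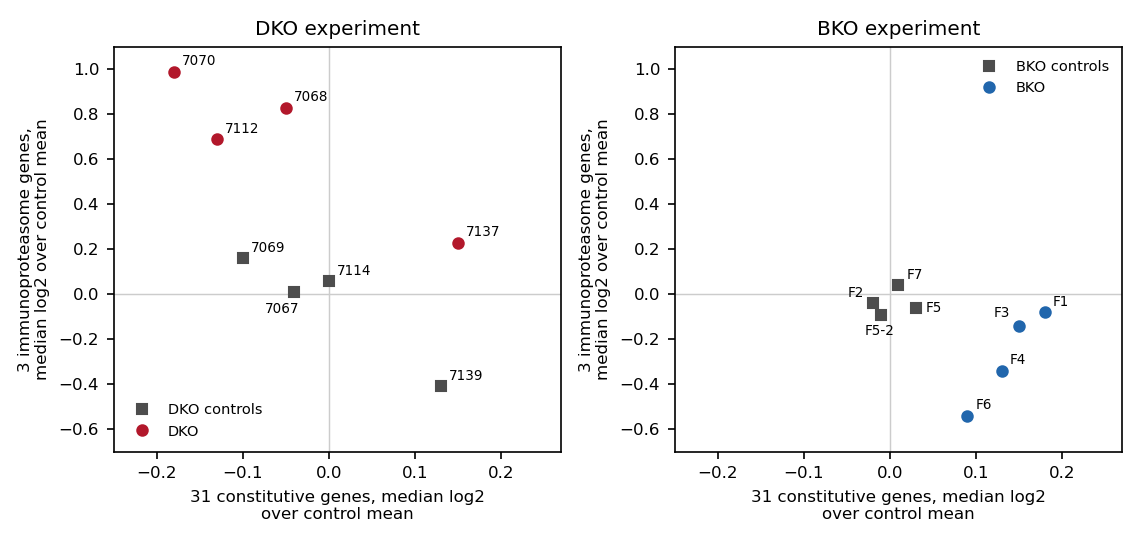
Median log2 difference from the control mean over the 31 constitutive genes (horizontal axis) and over the 3 immunoproteasome genes (vertical axis), 1 point per library. DKO-7137 lies at 0.15 and 0.23, apart from the other 3 DKO libraries, and the 4 BKO libraries lie at 0.09 to 0.18 on the horizontal axis, right of their controls.

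In BKO livers 30 of 31 constitutive genes had a fold change above 0, and edgeR, DESeq2 and voom each called 0 of them, while 9 had an unadjusted p under 0.05. Psmb3, at -0.03, was the exception. The median log2 fold change was 0.13, against 0.00 over all genes, and the range was -0.03 to 0.32. With scaling by library totals 22 of 31 were above 0 with a median of 0.05, and the median of all genes was then -0.07. Genes of 1 sample share its library and its scaling, so these 31 values are not independent of each other. Their summed level was 1330 to 1420 CPM in BKO livers and 1230 to 1270 CPM in controls, with no overlap, and 1510 to 1900 against 1510 to 1800 CPM in the DKO experiment, where the groups overlapped.

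All 17 of the 19S genes were above 0 in BKO livers, with a median log2 fold change of 0.17, and 13 of 14 core genes were, with a median of 0.08. Psmd2, a large base subunit that binds ubiquitin-like proteins, was at 137, 124, 128 and 109 CPM in BKO F1, F3, F4 and F6 and 101, 107, 111 and 102 CPM in controls F2, F5-2, F5 and F7. Only F6 was within the control range. Its log2 fold change was 0.24 (interval 0.05 to 0.44, edgeR adjusted p = 0.311). Psmd14 was at 24.7, 22.5, 25.4 and 21.2 CPM against 20.2, 15.2, 18.2 and 21.6, with F6 again inside the control range (0.32, interval 0.05 to 0.59, edgeR adjusted p = 0.333). The ATPase gene Psmc5 was at 41.1, 33.0, 30.4 and 31.4 CPM against 25.8, 27.1, 27.2 and 31.6, which overlapped through control F7 (0.28, interval 0.04 to 0.53, edgeR adjusted p = 0.359). Psmc2 was at 60.3, 53.2, 53.4 and 50.0 CPM against 50.3, 43.0, 46.9 and 42.9, overlapping by less than 1 CPM (0.24, interval 0.04 to 0.44, edgeR adjusted p = 0.327).

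All BKO libraries were above all controls for Psma1, Psma5, Psmb2 and Psmd13, against 3.64% of all genes. Psma5 was at 15.3, 14.0, 17.0 and 13.9 CPM against 12.6, 13.5, 12.7 and 9.41, with control F7 low (0.32, interval 0.02 to 0.61, edgeR adjusted p = 0.384). Psmb2 was at 28.0, 27.2, 29.1 and 30.2 CPM against 23.1, 24.5, 25.8 and 25.4, a narrow but complete separation (0.21, interval 0.02 to 0.40, edgeR adjusted p = 0.365). Psma1 was at 46.3, 44.1, 48.9 and 44.1 CPM against 39.6, 40.6, 43.6 and 42.3, again apart by less than 1 CPM (0.14, interval -0.03 to 0.32, edgeR adjusted p = 0.547). Psmd13, a lid subunit, averaged 26.8 ± 1.9 CPM against 22.6 ± 1.69 (0.24, interval 0.03 to 0.46, edgeR adjusted p = 0.354). Psmb1 was at 47.0 to 51.3 CPM against 44.7 to 49.8, which overlapped.

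Between the experiments the constitutive genes had a median log2 difference of -0.21, DKO effect minus BKO effect, against -0.01 over all genes, and 27 of 31 differences were below 0. With library totals the median was 0.06, where that of all genes was 0.27, so the sign depends on the scaling and the position below the median gene does not. One constitutive gene was called, Psmd12, a lid subunit, at -0.42 (interval -0.71 to -0.14, edgeR adjusted p = 0.0306). It stood at 49.5 CPM in DKO livers against 55.6 in controls, and at 47.8 in BKO livers against 41.0. The Psmd12 call was lost with library totals (-0.15, adjusted p = 0.461) and at adjusted p of 0.0535 to 0.0686 without DKO-7068, DKO-7070 or DKO-7112, controls WT-7067, F2, F5-2 or F5, or BKO F6.

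Of the 7 assembly chaperones, which hold partial rings together during assembly and leave the finished complex, Psmd9 was called lower in DKO livers and 0 of the others was called. Psmd9 encodes the chaperone p27 of the 19S base, and its annotation spans chromosome 5, 123169413 to 123250131, plus strand. Psmd9 was at 15.7, 12.9, 13.7 and 17.3 CPM in DKO livers and 25.1, 25.1, 21.9 and 31.0 CPM in controls. The groups were far apart, with every DKO library under the lowest control. The mean fell to 0.577 of the control, from 25.8 ± 3.82 to 14.9 ± 2.0 CPM (log2 fold change -0.79, interval -1.11 to -0.47, edgeR adjusted p = 0.00184). In BKO livers Psmd9 was at 21.3, 18.5, 26.2 and 26.2 CPM against 24.9, 21.2, 21.7 and 24.3, on both sides of the controls (interval -0.28 to 0.27, edgeR adjusted p = 0.999). The difference between the experiments was -0.82 (interval -1.23 to -0.42, edgeR adjusted p = 0.00518), and -0.55 with library totals (adjusted p = 0.0521).

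Psmd9 overlaps Hpd, a tyrosine-degrading enzyme gene of hepatocytes, on the opposite strand. Hpd stood at 726 ± 159 CPM in DKO livers against 1520 ± 388 in controls (log2 fold change -1.07, edgeR adjusted p = 0.00351), and at 1440 ± 88.4 against 1450 ± 143 in BKO. Hpd thus moved in the same direction as Psmd9 in DKO and was near its control mean in BKO. By GENCODE M21 the exons of Hpd and Psmd9 do not overlap, whereas those of Tap1 and Psmb9 do. The annotation used for counting is not stated, and the part of Hpd reads in the Psmd9 counts was not tested.

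Psmg2, which with PSMG1 forms a chaperone of the alpha ring, was at 12.3, 9.72, 8.14 and 11.5 CPM in DKO livers and 7.84, 5.54, 7.52 and 8.83 CPM in controls. Only DKO-7112 lay inside the control range, and the log2 fold change of Psmg2 was 0.49 (interval 0.07 to 0.92, edgeR adjusted p = 0.0676). It passed without DKO-7112 (0.57, adjusted p = 0.0394). PSMG3 and PSMG4 form a second chaperone pair of that ring, and their low counts gave wide intervals. Psmg3 stood at -0.34 in DKO (interval -0.77 to 0.09) and Psmg4 at 0.31 (-0.30 to 0.91). In BKO livers Psmg3 was at 5.67 to 9.13 CPM against 4.61 to 6.72 and Psmg4 at 1.14 to 1.6 against 0.705 to 1.54, both overlapping. Psmc3ip, a recombination cofactor that is no proteasome subunit, was at 0.414 to 1.81 CPM in DKO livers against 0.449 to 1.15.

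Per kilobase of exon, Psmb8 and Psmb9 lay below every constitutive gene in the controls of both experiments, while Psmb10 lay within the constitutive range. This order depends on the divisor, the union of all annotated exons, which was 3381 bases for Psmb8 and 899 for Psmb5. Before division, Psmb8 and Psmb5 stood at 17.8 and 19.1 CPM in DKO controls. In DKO controls the 31 constitutive genes ran from 8.73 to 55.5 CPM per kb with a median of 17.3, and Psma6 was the highest of all members. Psmb10 was within that range at 14.4 CPM per kb and Psme1 above its median at 26.4, while Psme2 (7.68), Psmb8 (5.26), Psmd9 (3.56) and Psmb9 (1.87) were under its lower end. In BKO controls the constitutive range was 6.66 to 33.6 CPM per kb with a median of 13.8, Psma6 was again the highest, and Psmb8 (5.41) and Psmb9 (2.1) were again under it. The 50 members lay on 16 chromosomes, with 10 on chromosome 11.

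Genes that act around the proteasome were counted from lists, beside 19.2% of all genes called higher and 16.6% lower in DKO livers and a median log2 fold change over all genes of 0.02. Of 7 regulators in DKO livers, Irf1, the interferon-responsive activator of immunoproteasome genes, rose and Ngly1, which processes NFE2L1, fell. Irf1 was at 36.0, 35.5, 34.7 and 34.1 CPM against 28.0, 24.2, 20.9 and 22.8, with no overlap (log2 fold change 0.55, edgeR adjusted p = 0.00297). Ngly1 stood at 27.5 ± 2.17 CPM against 34.6 ± 2.54 (-0.33, edgeR adjusted p = 0.0276). Nfe2l1 was at -0.07 (interval -0.34 to 0.19), Nfe2l2 at 0.33 (0.02 to 0.64, edgeR adjusted p = 0.0903), Nlrc5 at 0.46 (adjusted p = 0.111) and Ddi2 at 0.19, and the median of the list was 0.21. In BKO livers edgeR called 0 of 7, with 0 at an unadjusted p under 0.05.

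Of 10 class I antigen processing genes, which use the peptides that proteasomes make, 1 rose and 2 fell in DKO livers. Tapbp, the peptide-loading chaperone tapasin, rose from 153 ± 15.6 to 209 ± 4.11 CPM (log2 fold change 0.46, edgeR adjusted p = 0.00864). H2-K1, a class I heavy chain, fell from 856 ± 64.8 to 541 ± 85.9 CPM (-0.66, edgeR adjusted p = 0.00601), and B2m, its light chain, fell from 1420 ± 98.4 to 1030 ± 179 CPM (-0.47, edgeR adjusted p = 0.0455). The median log2 fold change of the list was 0.07. Tap1 (0.57, adjusted p = 0.084), Tap2 (0.35, adjusted p = 0.075), H2-D1 (0.16), Erap1 (-0.24), Tapbpl (-0.02), Pdia3 (0.23) and Calr (-0.07) were not called by edgeR. In BKO livers edgeR called 0 of 10, with 2 higher at an unadjusted p under 0.05.

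Of 11 proteasome subunits and partners outside the Psm names, 2 fell in DKO livers, the ubiquitin ligase gene Ube3c (-0.31, edgeR adjusted p = 0.0249) and Akirin2 (-0.39, edgeR adjusted p = 0.0425), which encodes an importer of proteasomes into the nucleus, and the median of the list was -0.10. Of 15 genes of ubiquitin supply and shuttling, 2 rose. The shuttle and autophagy receptor gene Sqstm1 rose from 244 ± 35.5 to 385 ± 84.6 CPM (0.66, edgeR adjusted p = 0.0135), Ubqln2 rose (0.44, adjusted p = 0.0224), and Ubqln4 fell (-0.42, adjusted p = 0.00935). In BKO livers edgeR called 0 of both lists. The ubiquitin list had 5 genes higher and 0 lower at an unadjusted p under 0.05 there, with a median log2 fold change of 0.18, and the partner list had 1 each way and a median of 0.00, where 5.88% and 5.75% of all genes were higher and lower and their median was 0.00.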

How the data were processed

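Each experiment's deposited table holds whole, unnormalized counts of its 8 libraries. Per the submitters' processing notes the authors' tools were the trimmer Trim Galore 0.4.1, the aligner HISAT2 2.1.0 and, for counting, featureCounts 1.6.2, and those notes give the builds GRCm38, mm10 and GRCh38 with no role. No source used here states the strand setting, the annotation or how shared reads were counted. By GENCODE M21 (GRCm38), 24 of 50 members overlap another gene, 15 share exon sequence and for 19 the partner is on the other strand. RNA was isolated with TRIzol and made into NuGEN Ovation libraries, per the labels' protocols.

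Libraries were grouped by the labelled genotype, and 0 columns lacked a sample. The counts entered edgeR 4.0.16 in R 4.3.3 (filterByExpr, TMM, robust quasi-likelihood), with Benjamini-Hochberg adjustment over all genes. The difference of effects was fitted on the 24394 names shared by both tables. Of the BKO names, 27 had become dates and stayed out of that fit. Intervals are 95%, and ratios added 0.5 to each count and were tested by exact permutation. Python 3.11.15 with pandas 2.3.3 and numpy 2.4.6 made the summaries. CPM per kb divides by the union of exons.

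Members and gene lists were chosen with earlier results of these data known. The lists covered leukocyte, macrophage, T and NK cell, B cell, endothelial, stellate, biliary and hepatocyte markers, regulators, class I antigen processing, ubiquitin supply and partners outside the Psm names. Values of some listed genes are not reported here. Given with per-library values or their range were the immunoproteasome genes, their counterparts, the activators, Psmf1 and the 2 lowest p of each other class in each experiment, with Psmd12 and Psmd13 added because they are named in a count. The closest pair, DKO-7068 and DKO-7070 (chi-square per degree of freedom 7.32, others of the group 35.2 to 60.4), stayed 2 libraries, and the fit with both summed was added after seeing the data. F5 and F5-2 differed beyond sampling noise (70.0).

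The fits were tested on simulated counts with known changes, far fewer than the genes called in DKO. In the DKO, BKO and difference fits, 10%, 19.4% and 1.45% of 1.5-fold changes were recovered. For 4-fold changes these shares were 92.2%, 89.1% and 76.6%, and 6.14%, 7.2% and 7.14% of calls were false. A member that was not called can therefore have changed by about 1.5-fold. Alternatives were DESeq2 1.42.0 size factors and Wald test, library totals, limma 3.58.1 with voom, the 20 most abundant genes left out of scaling, no filter, at least 1 CPM in 4 libraries, all 16 libraries fitted together, a batch term for the tag series in DKO, F5 and F5-2 summed, and each library left out in turn.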

Additional observations from a re-analysis of the deposited data

Results flagged for a closer look

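In 4 values per group, 1 library stood far from the other 3 by Dixon's test in 7 of 112 groups tested, and chance alone marks about 1 in 20 groups. These were Psma3 at 46.4 CPM and Psmc2 at 75.4 CPM in DKO-7137, both above the rest of the group. Psmc2 was also high at 64.0 CPM in control WT-7139. Psmb6 was low at 48.8 CPM in DKO-7112. In the BKO experiment Psmd6 was high at 27.8 CPM in control F2, Psme2 low at 7.82 CPM in BKO F6, and Psme3 low at 54.7 CPM in BKO F4.

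The effect of the double knockout differed from that of the single knockout for 6 members, by the edgeR test of the difference itself. The DKO effect was above the BKO effect for the inducible subunit genes Psmb8 (log2 difference 1.00), Psmb10 (0.89) and Psmb9 (1.19). It was below it for the base chaperone gene Psmd9 (-0.82), the PA200 gene Psme4 (-0.54) and the lid gene Psmd12 (-0.42).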

How the results depend on the processing

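Of the member results, 824 of the DKO values under an alternative stayed on their side of the threshold, 29 lost a call and 11 gained one, and for the difference of effects these numbers were 953, 20 and 7. All 831 BKO values stayed on theirs. No called value changed sign. Among the values that stayed on their side, uncalled members crossed 0 in 33 DKO, 40 BKO and 67 difference values. The number of members called higher in DKO was 5, and 10 with library totals, 3 with voom, 3 with no count filter, 2 with DKO-7068 and DKO-7070 summed and 1 to 5 with a library left out. The number called lower was 2, and 1 with library totals and 2 to 6 with a library left out. The number of members whose effects differed was 6, and 4 to 10 with a library left out. Over all genes, library totals gave 3266 higher and 1269 lower calls in DKO against 2467 and 2137, and 2627 and 744 for the difference against 1552 and 1610. In BKO, the DESeq2 Wald test called 152 genes higher and 203 lower against 26 and 56.

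With a library left out, the log2 ratio differences ran from 0.54 to 0.90 for Psmb8 to Psmb5, 0.57 to 1.20 for Psmb9 to Psmb6 and 0.64 to 0.98 for Psmb10 to Psmb7 in DKO. In BKO they ran from -0.61 to -0.44, -0.39 to -0.16 and -0.44 to -0.32. With F5 and F5-2 summed, Psmb10 to Psmb7 in BKO was -0.38 at an exact permutation p of 0.0571. The cause of these changes was not tested, beyond the fewer libraries that leaving out or summing gives. No paired analysis was possible because no tag recurs in another group. A batch term for the DKO tag series, which groups livers but pairs none, left 5 members higher and 2 lower. Depth limits the smallest genes, since Psmg4, Psmc3ip and Psma8 rest on few counts per library.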
